A study of Solenopsis japonica with 2 samples.

Results

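Lipases are enzymes that release fatty acids from fat, and phospholipases release fatty acids or head groups from membrane phospholipids. In the deposited comparison of *S. japonica* workers kept at a low and at a normal temperature, contigs were taken as members when the protein (NR) or nucleotide (NT) description of their best match held the word lipase, and names with venom were to be dropped. This gave 17 contigs of 4487, none of which had to be dropped, with 12 triacylglycerol lipases (pancreatic-like, lipase member H, lipase 3-like and hormone-sensitive lipase) and 5 phospholipases. RNA came from whole bodies of wild type adult medium workers after 24 h of exposure to 9 °C (T9) or, as the control, to 25 °C (T25, the temperature at which the single laboratory colony was kept), with 1 library per temperature from pooled ants. The paper's methods describe repeated independent preparations per treatment, but the deposited data hold only 1 library per temperature. There is therefore no replicate check among the libraries, no difference can be set against the spread between pools of ants, and no test of the temperature was made. The deposited table holds only contigs with at least 1 count in each library that passed a cut of the authors for a difference. Lipases with similar counts in both libraries were therefore not analysed here. That cut is looser than the one behind the paper's own, much shorter lists of differentially expressed genes. Of the members, those lists hold only c78680_g1_i1, c89947_g1_i2, c83670_g1_i1, c83670_g2_i1, c102478_g1_i1, c76554_g1_i2 and c79106_g1_i2.

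Insects store fat as triacylglycerol in lipid droplets of the fat body and take it up from food in the midgut. Neutral lipases of the pancreatic lipase family are mostly secreted enzymes, several of which act on dietary fat, while the lipase 3 group belongs to the acid lipases, related to the lysosomal enzyme of mammals. Hormone-sensitive lipase acts at the surface of lipid droplets. Calcium-independent phospholipase A2-gamma belongs to the patatin-like enzymes and works on mitochondrial and peroxisomal membranes in mammals. Phospholipase A1 of the pancreatic lipase family is known as a venom allergen of the fire ant *S. invicta*, and phospholipase B1 of mammals is a digestive enzyme of the gut surface.

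Members whose descriptions lack the word phospholipase were classed as triacylglycerol lipases, by name and not by substrate. Most of these were higher in the T9 library, while 3 of the 5 phospholipases were lower. Of the 12 triacylglycerol lipase contigs, 9 were higher and 3 lower in T9, where 54.7% of all contigs of the table were higher and 45.3% lower. Of the 5 phospholipase contigs, 2 were higher and 3 lower. At least 4-fold higher in T9 were 7 triacylglycerol lipases and 1 phospholipase, beside 36.9% of all contigs, and at least 4-fold lower were 3 triacylglycerol lipases and 2 phospholipases, beside 30.8% of all contigs. With so few members these shares are a description and show nothing particular to lipases. The median log2 ratio of T9 to T25, taken after adding 1 to each scaled count, was 2.05 over the triacylglycerol lipases and -1.88 over the phospholipases, against 1.45 over the whole table. As the table holds no contig with a ratio near 1, these medians mainly restate which side holds more contigs. Over all contigs higher in T9 the median was 2.15, and over all contigs lower in T9 it was -2.18.

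Summed over contigs, the triacylglycerol lipases held 25997 counts in T9, against 7156 in T25. After scaling by the library sizes (53237356 for T9 and 49264352 for T25) this sum was 3.36-fold (3.27 to 3.45) higher in T9. The phospholipases held 9107 counts in T9, against 40765 in T25, and their sum was 4.84-fold (4.73 to 4.95) lower in T9. Beside these, the sum of all contigs of the table was 1.70-fold lower in T9. Over all contigs higher in T9 the sum was 4.30-fold higher, and over all contigs lower in T9 it was 4.72-fold lower. Neither class sum is thus large for contigs of this table. Intervals in parentheses after a fold are exact Clopper-Pearson 95% intervals and cover counting error only. They leave out 1 for all 17 members, as they do for each of the 4487 contigs, since only contigs that passed the cut for a difference are in the table. In each class 1 contig decides the size of the sum. Without c84520_g1_i1 the triacylglycerol lipases were 5.81-fold (5.53 to 6.11) higher, and without c76554_g1_i2 the phospholipases were 1.98-fold (1.76 to 2.22) lower in T9.

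**Figure D1:**
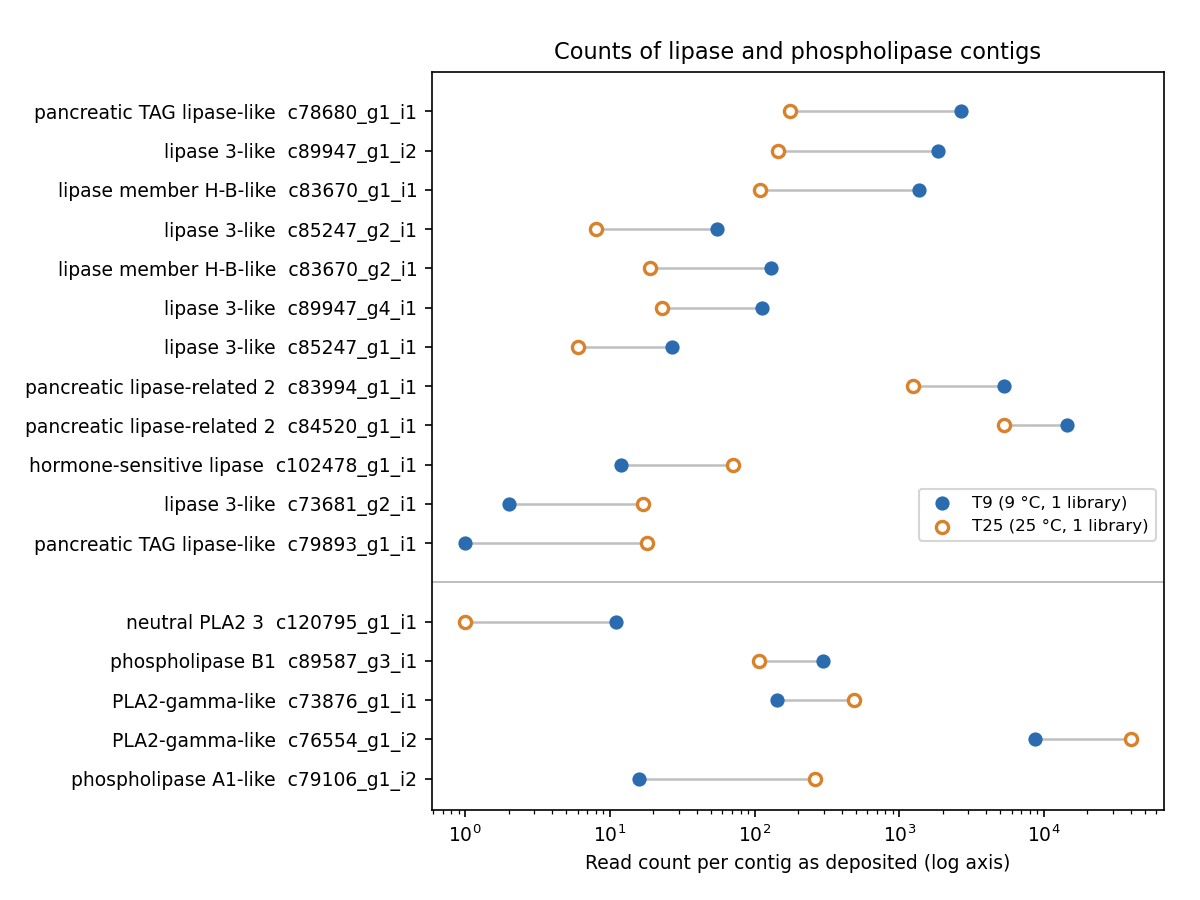
Deposited read counts (log axis) of the 12 triacylglycerol lipase contigs (above the grey line) and the 5 phospholipase contigs (below it), with a filled point for the T9 library and an open point for the T25 library. The filled point lies to the right for 9 triacylglycerol lipases and 2 phospholipases, and the counts run from 1 to 39909.

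Among the pancreatic-like lipases, the largest ratio belonged to c78680_g1_i1, a pancreatic triacylglycerol lipase-like contig, with 2683 counts in T9, against 177 in T25. It was 14.0-fold (12.0 to 16.4) higher in T9 and had rank 228 of 4487 when all contigs were ordered from the highest ratio down. The contig c83670_g1_i1 had 1376 counts in T9, against 109 in T25, 11.7-fold (9.61 to 14.3) higher. It is named lipase member H-B-like by its nucleotide match and pancreatic triacylglycerol lipase-like by its protein match. Lipase H of mammals releases lysophosphatidic acid from a phospholipid, so the name of this group does not fix its substrate.

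The most abundant lipases differed less. Contig c84520_g1_i1, matched to pancreatic lipase-related protein 2-like, had 14454 counts in T9, against 5319 in T25, which made it 2.51-fold (2.44 to 2.60) higher in T9. It rests on a nucleotide match alone, to the ant *Trachymyrmex cornetzi*, with no protein match and no Pfam domain. Contig c83994_g1_i1 carries the same name and has both a protein match and the lipase domain. It had 5278 counts in T9, against 1243 in T25. Its level was 3.93-fold (3.69 to 4.18) higher, just under 4-fold. The intervals of these contigs did not overlap, and neither contig is in the paper's lists of differentially expressed genes.

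A pancreatic triacylglycerol lipase-like contig of few counts ran the other way. Contig c79893_g1_i1 had 1 count in T9, against 18 in T25, 19.5-fold (3.07 to 810.4) lower in T9. Its interval spans more than 2 orders of magnitude, so its size is poorly known. Of the 6 pancreatic-like and member H contigs it was the only one lower in T9.

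The lipase 3-like contigs were higher in T9 in 4 of 5 cases. The largest count was that of c89947_g1_i2, taken to RT-qPCR by the authors under the name LIP, with 1868 counts in T9, against 146 in T25, 11.8-fold (10.0 to 14.1) higher in T9. The paper states that the RT-qPCR changes of its chosen genes, from separately incubated ants, had the same direction as its sequencing. Contig c89947_g4_i1 matches the same *S. invicta* locus (LOC105208099) and had 112 counts in T9, against 23 in T25, 4.51-fold (2.86 to 7.40) higher. Both contigs of this locus lay on the same side, but the ratio of the first was 2.63 times that of the second and the intervals did not overlap. Contig c89947_g4_i1 is the shorter of them, as its count per FPKM was smaller in both libraries.

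Further lipase 3-like contigs had few counts. Contigs c85247_g2_i1 and c85247_g1_i1 share the locus LOC105193237. The first had 55 counts in T9, against 8 in T25, 6.36-fold (3.01 to 15.5) higher, and the second had 27 in T9, against 6 in T25, 4.16-fold (1.68 to 12.3) higher. Their intervals overlapped, and summed they were 5.42-fold (3.05 to 10.3) higher in T9. The exception was c73681_g2_i1, with 2 counts in T9, against 17 in T25, 9.19-fold (2.18 to 82.0) lower in T9. It had the smallest count per FPKM of the members, and so the smallest effective length, which is the contig length less about a sequenced fragment, and its level per length is therefore uncertain.

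A further pair of contigs matches the lipase member H-B-like locus LOC105207817. Beside c83670_g1_i1, the contig c83670_g2_i1 had 129 counts in T9, against 19 in T25, 6.28-fold (3.86 to 10.8) higher in T9. Its interval overlapped that of c83670_g1_i1, and the sum of both was 10.9-fold (9.08 to 13.1) higher. Contigs that match 1 locus may be fragments of a single transcript or close copies, and the estimated counts of contigs with shared sequence depend on how reads were divided between them. With contigs summed per matched locus, an alternative added once the values were known, 6 of 9 triacylglycerol lipase units were higher in T9.

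Hormone-sensitive lipase was lower in T9. Its contig, c102478_g1_i1, had 12 counts in T9, against 71 in T25, and was 6.39-fold (3.44 to 13.0) lower. It rests on a nucleotide match alone, with no protein match and no Pfam domain. The 3 triacylglycerol lipase contigs that were lower in T9 had totals under 100 counts, and the 7 contigs of this class with a total of at least 100 counts were all higher.

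**Figure D2:**
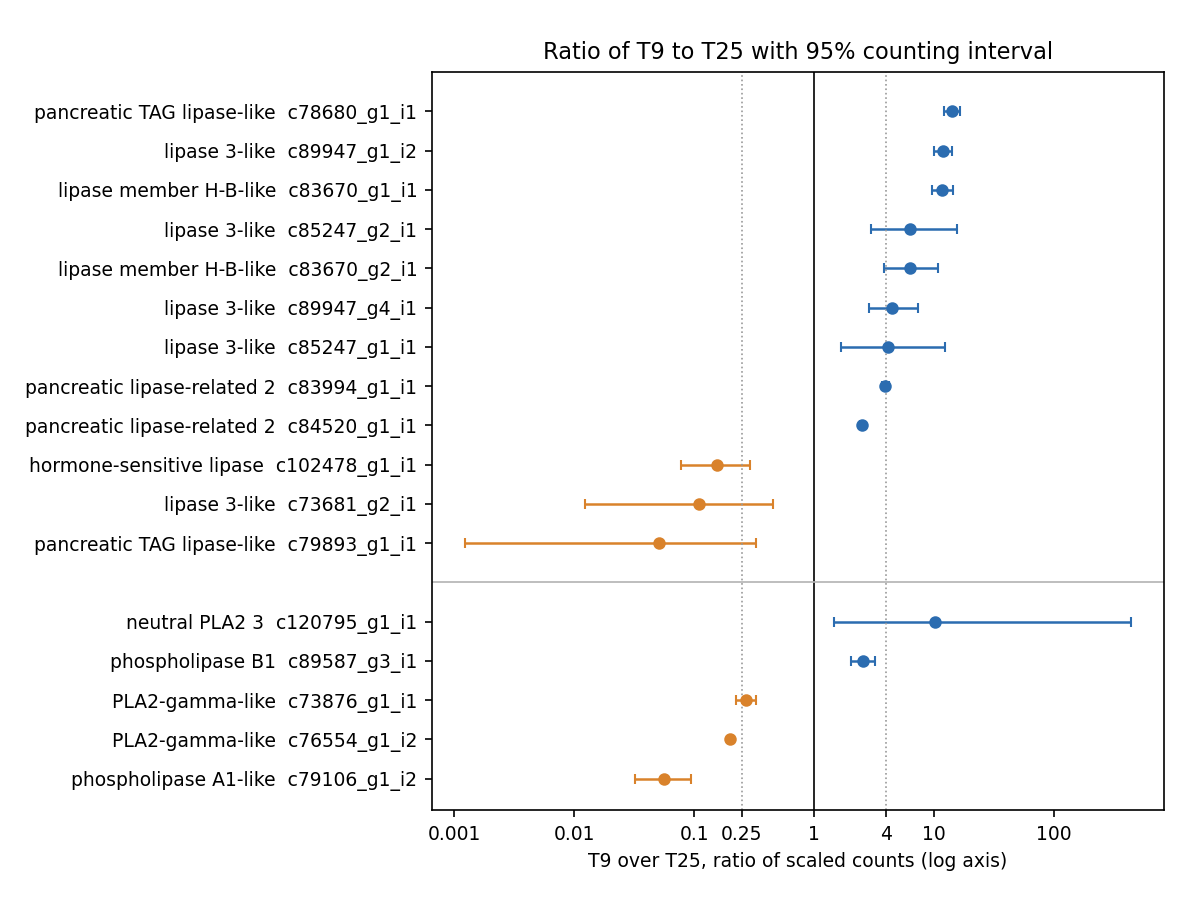
Ratio of scaled counts, T9 over T25 (log axis), of each contig, with the triacylglycerol lipases above the grey line and the phospholipases below it. Bars are exact 95% counting intervals, the solid line marks a ratio of 1 and the dotted lines 4-fold in either direction. The widest intervals belong to c79893_g1_i1 and c120795_g1_i1, each with 1 count in a library.

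Among the phospholipases, most counts belonged to c76554_g1_i2, matched to calcium-independent phospholipase A2-gamma-like. It held 8639 counts in T9, against 39909 in T25, a 4.99-fold (4.88 to 5.11) lower count in T9 after scaling, and made up 94.9% of the phospholipase counts in T9 and 97.9% in T25. It carries the patatin domain (PF01734) and was the only contig of the table with this domain. A further contig named phospholipase A2-gamma-like, c73876_g1_i1, matched by nucleotides alone to the ant *Wasmannia auropunctata*, had 142 counts in T9, against 485 in T25. It was 3.69-fold (3.06 to 4.48) lower. Both contigs of this name were thus lower in T9, and their intervals did not overlap.

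Phospholipase A1-like had the lowest ratio of the phospholipases. Contig c79106_g1_i2, taken to RT-qPCR by the authors as PAL, had 16 counts in T9, against 262 in T25, 17.7-fold (10.7 to 31.4) lower in T9, at rank 4376 of 4487. The paper's statement on the direction of its RT-qPCR changes covers this contig as well. Its best UniProt match is phospholipase A1 of *S. invicta*. By its domain (PF00151) it belongs with the pancreatic-like lipases and not with the other phospholipases, and 4 of the 5 triacylglycerol lipases with the same domain were higher in T9. Of the 8 salivary and venom gland marker contigs listed, 7 were higher in T9, with 113899 counts in T9, against 3811 in T25. Most of these counts belonged to probable salivary secreted peptides, led by c88505_g1_i1 with 42533 in T9, against 379 in T25. The venom acid phosphatase-like contigs c1274_g1_i1 and c87231_g1_i2 had log2 ratios of 2.42 and 2.33, and the lower contig, c44178_g1_i1, had -1.43. The part of these glands in the ratio of c79106_g1_i2 was not tested.

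The phospholipases higher in T9 are less certain by name or by count. Contig c89587_g3_i1 had 299 counts in T9, against 108 in T25, 2.56-fold (2.05 to 3.22) higher in T9. Its protein match is phospholipase B1, membrane-associated, of the ant *Atta colombica*, but its nucleotide match is an S-adenosylmethionine synthase-like mRNA of *S. invicta*. Contig c120795_g1_i1, matched to neutral phospholipase A2 3, had 11 counts in T9, against 1 in T25, 10.2-fold (1.48 to 438) higher. It carries the secreted phospholipase A2 domain PF00068. Without c89587_g3_i1, 1 of 4 phospholipase contigs was higher in T9.

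**Figure D3:**
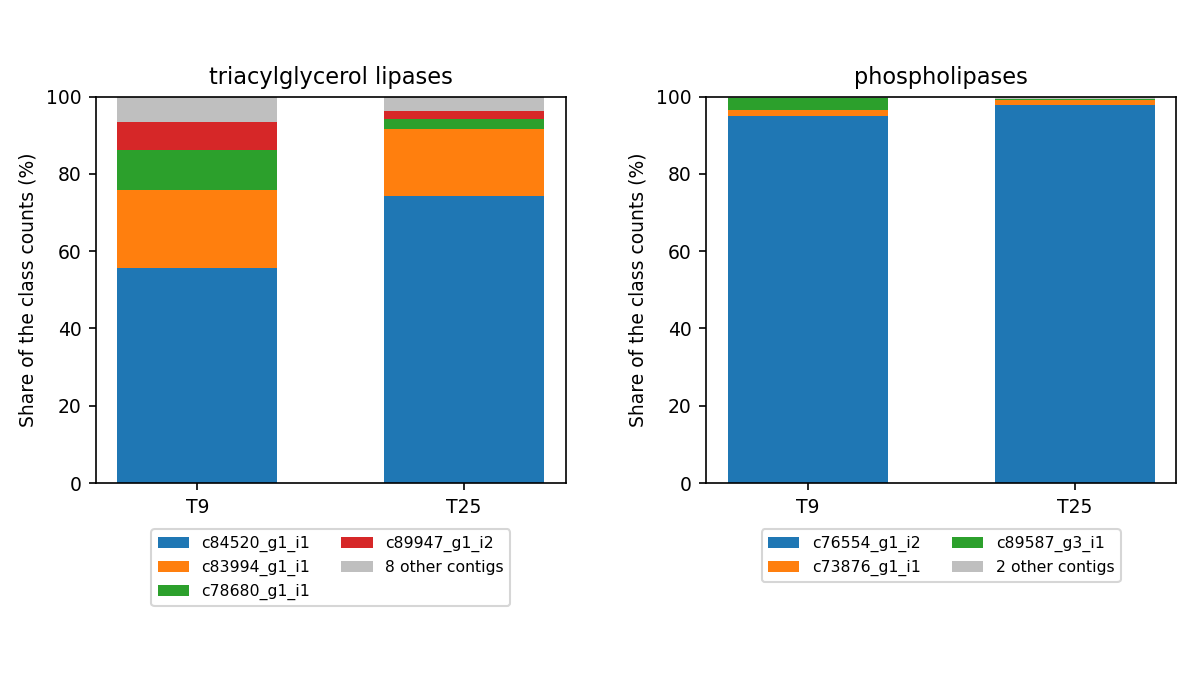
Share of the summed counts of the triacylglycerol lipases (left panel) and of the phospholipases (right panel) held by single contigs (percent), with T9 left of T25 in each panel. Contig c84520_g1_i1 held 55.6% of the triacylglycerol lipase counts in T9 and 74.3% in T25, and c76554_g1_i2 held 94.9% of the phospholipase counts in T9 and 97.9% in T25.

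Within the triacylglycerol lipases, the make-up of the counts differed between the libraries. Contig c84520_g1_i1 held 55.6% of them in T9 and 74.3% in T25, while c83994_g1_i1 held 20.3% in T9 and 17.4% in T25. Larger shares in T9 were held by the 3 contigs with ratios over 10. Contig c78680_g1_i1 held 10.3% in T9 and 2.47% in T25, c89947_g1_i2 held 7.19% in T9 and 2.04% in T25, and c83670_g1_i1 held 5.29% in T9 and 1.52% in T25.

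Levels per effective contig length, in the deposited FPKM, put the same contigs at the top of both libraries in opposite order. In T9 the highest level was that of c84520_g1_i1, with 320.8 FPKM in T9, against 116.5 FPKM in T25. The second in T9 was the phospholipase c76554_g1_i2, with 57.7 FPKM in T9, against 263 FPKM in T25, where it was the highest. Among all contigs of the table, ordered by FPKM, c84520_g1_i1 had rank 50 in T9 and 45 in T25, and c76554_g1_i2 had rank 158 in T9 and 26 in T25.

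Below these, the order of levels changed more. The pancreatic triacylglycerol lipase-like c78680_g1_i1 was at place 3 in T9 and 9 in T25, with 36.4 FPKM in T9, against 2.37 FPKM in T25. Phospholipase A1-like c79106_g1_i2 was at place 16 in T9 and 7 in T25, with 0.33 FPKM in T9, against 5.38 FPKM in T25. Hormone-sensitive lipase c102478_g1_i1 was at place 13 in T9 and 6 in T25, with 1.19 FPKM in T9, against 6.93 FPKM in T25. These levels rest on 12 counts in T9 and 71 in T25 over a short effective length, 6.14% of that of the longest member. Neighbours in this order are often not separated by counting error. Their exact Poisson 95% intervals overlapped for 8 of 16 neighbouring pairs in T9 and for 12 of 16 in T25. In T9 the contigs from c84520_g1_i1 down to c89947_g1_i2, the first 5, were each separated from the next, and in T25 this held for the first 3.

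**Figure D4:**
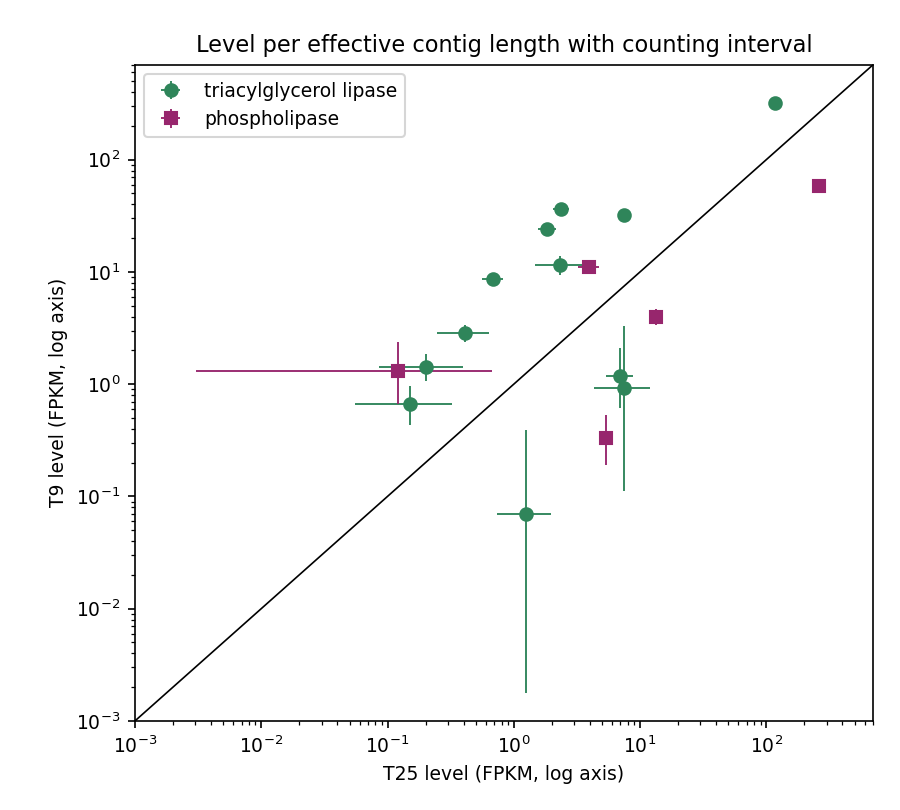
Level of each contig in FPKM in the T9 library (vertical, log axis) and the T25 library (horizontal, log axis), with circles for the triacylglycerol lipases and squares for the phospholipases. Bars are exact Poisson 95% intervals for counting error and the line marks equal levels. Points run from 0.07 to 320.8 FPKM in T9 and from 0.12 to 263 FPKM in T25.

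The members share features that their names did not use. The best matches were ant sequences for 17 of 17 contigs, and none matched the mealworm diet or another beetle. Pfam domains were given for 12 contigs. The pancreatic lipase domain PF00151 stood in 6 contigs and the alpha/beta hydrolase domain PF00561, here in lipase 3-like contigs alone, in 4, and for each domain these were the only contigs of the table that carry it. Summed over the 4 contigs with PF00561, counts were 1952 in T9, against 177 in T25, 10.2-fold (8.75 to 12.0) higher in T9. Most of these counts, 1868 in T9 and 146 in T25, belong to c89947_g1_i2, and c73681_g2_i1 with the same domain was lower in T9. Summed over the 5 triacylglycerol lipases with PF00151, counts were 9467 in T9, against 1566 in T25, 5.59-fold (5.30 to 5.91) higher.

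The term lipid catabolic process was attached to 7 of the 17 contigs, through matched genes of other animals. The term for phosphatidylcholine 1-acylhydrolase activity, which is that of a phospholipase A1, was attached to 3 contigs. These were c79106_g1_i2, named phospholipase A1-like, and also c78680_g1_i1 and c79893_g1_i1, which are named pancreatic triacylglycerol lipase-like. The border between the classes is therefore one of names, and c78680_g1_i1 was higher while c79106_g1_i2 and c79893_g1_i1 were lower in T9.

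Other lipid genes of the table were counted by lists of words in their descriptions. Of 7 fat storage contigs 4 were higher and 3 lower in T9, and 0 of them were at least 4-fold higher. Lipid storage droplets surface-binding protein 2-like (c30207_g1_i1), which coats lipid droplets, had 3178 counts in T9, against 1140 in T25, 2.58-fold (2.41 to 2.76) higher. Glycerol kinase (c82862_g1_i2), which returns glycerol to the pathway of fat synthesis, was 2.53-fold (2.43 to 2.63) higher, and glycerol-3-phosphate acyltransferase 1 (c87193_g3_i1), which makes the first step of that pathway, was 2.44-fold (2.35 to 2.55) higher. The lower contigs were 1-acyl-sn-glycerol-3-phosphate acyltransferase alpha (c87556_g1_i3), with 52 counts in T9, against 168 in T25, and 2 diacylglycerol kinases that the words glycerol kinase also found.

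Of 7 lipid transport contigs 6 were higher and 1 lower in T9. Apolipophorins (c84287_g2_i1), the protein of the particles that carry lipid through insect blood, had 150479 counts in T9, against 50431 in T25, 2.76-fold (2.73 to 2.79) higher. Vitellogenin (c89203_g1_i4), a yolk lipoprotein made in the fat body, was 2.85-fold (2.81 to 2.89) higher. The lower contig was apolipoprotein D-like (c81628_g1_i1), a lipocalin and not a particle protein, 3.05-fold lower in T9 with 246 counts in T9, against 695 in T25.

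Phospholipid and sphingolipid turnover was represented by 13 contigs, 9 higher and 4 lower in T9. Neutral ceramidase-like (c88844_g1_i2), which cleaves ceramide and is also a gut enzyme in mammals, had 3770 counts in T9, against 949 in T25, 3.68-fold (3.42 to 3.95) higher. Ceramide phosphoethanolamine synthase-like (c85018_g2_i2), which makes the main sphingolipid of insects, was 2.66-fold (2.42 to 2.92) higher. A lactosylceramide 4-alpha-galactosyltransferase-like contig (c76517_g1_i2), a glycolipid enzyme, was 2.54-fold (2.31 to 2.79) higher. Larger ratios with fewer counts were those of phospholipid-transporting ATPase IF (c89910_g1_i9), 10.4-fold (8.66 to 12.6) higher, and phospholipid scramblase 1-like (c89675_g1_i7), 5.58-fold (4.57 to 6.87) higher. A further neutral ceramidase-like contig, c93266_g1_i1, had 31 counts in T9, against 2 in T25, 14.3-fold (3.65 to 124) higher. Among the lower contigs, c116148_g1_i1 matches the neutral ceramidase-like locus of c88844_g1_i2 (LOC105197211). It had 1 count in T9, against 25 in T25, 27.0-fold (4.42 to 1109) lower in T9. An acid sphingomyelinase-like phosphodiesterase 3a contig (c83191_g1_i1) had 9 counts in T9, against 48 in T25, 5.76-fold (2.80 to 13.4) lower.

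The carboxyl esterases, of which 3 of 6 were higher in T9, had ratios on both sides. Esterase FE4-like (c90604_g2_i6), of a family that detoxifies insecticides in aphids, was 2.94-fold (2.82 to 3.06) higher, and liver carboxylesterase 2-like (c88084_g2_i4) was 4.12-fold (3.90 to 4.35) higher. Contig c88084_g2_i4 has the esterase name from its protein match, while its nucleotide match is a proline-, glutamic acid- and leucine-rich protein 1-like mRNA. The phosphotriesterase-related contig c75927_g1_i1, which the word esterase also found, was 2.46-fold (2.29 to 2.65) higher. All 3 lower contigs match a single esterase E4-like locus (LOC105197701). The fatty acid synthesis list also took in fatty acyl-CoA reductases, elongases and desaturases, and its contigs were all higher in T9, 47 of 47. The largest counts belonged to fatty acid synthase contigs (c90821_g8_i3, c21111_g1_i1 and c90211_g3_i6), and the sum of the list was 5.05-fold higher in T9. This direction was known when the lists were written and is no independent evidence.

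**Figure D5:**
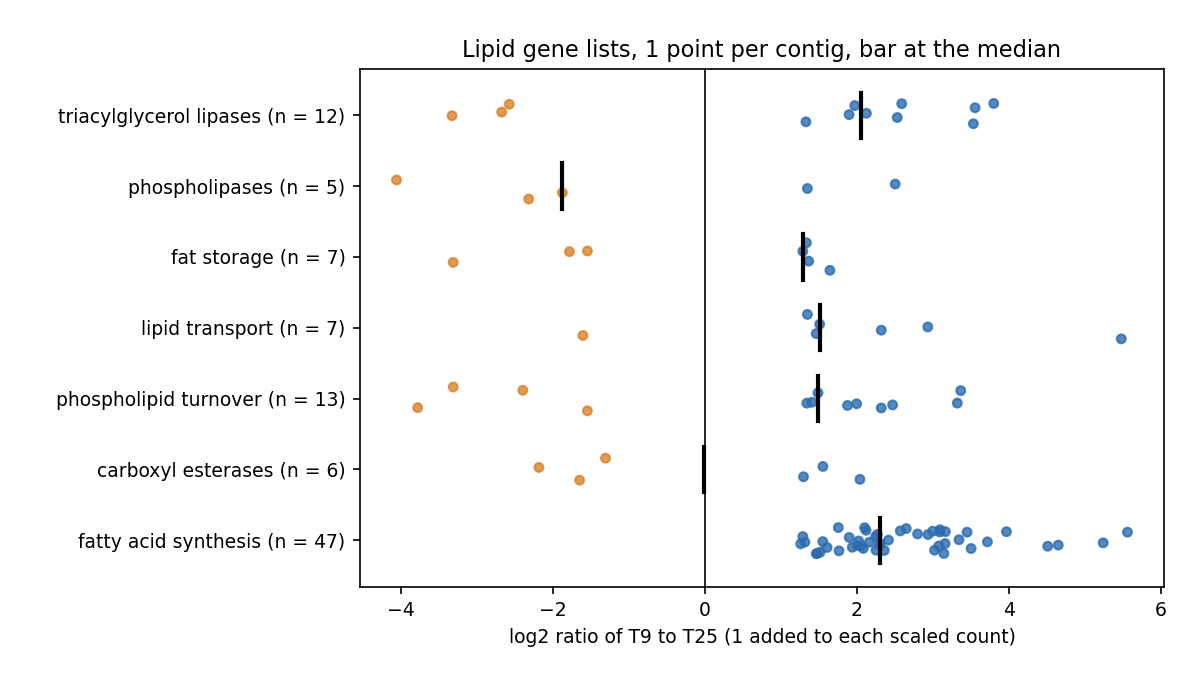
log2 ratio of T9 to T25 (1 added to each scaled count), with 1 point per contig and a black bar at the median of each list. The 12 triacylglycerol lipases have their median at 2.05 and the 5 phospholipases at -1.88. The gap around 0 is there because contigs with similar counts are not in the table.

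Markers of several tissues were counted in whole-body RNA, where fewer cells of a type and less RNA per cell cannot be told apart. Beside them, 54.7% of all contigs of the table were higher and 45.3% lower in T9. Midgut marker contigs were higher in T9 in 25 of 32 cases, with 342940 counts in T9, against 13631 in T25. Large drops stood among the 7 lower ones, with log2 ratios of -6.16 for chymotrypsin-1-like c82058_g1_i1 and -4.89 for peritrophin-48-like c85316_g3_i2. Fat body markers were higher in 4 of 6 cases, with 218993 counts in T9, against 73210 in T25, and these 4 contigs are the vitellogenins and apolipophorins that also stand in the lipid transport list. The other fat body markers are storage proteins and were lower in T9. Arylphorin subunit alpha-like (c72825_g1_i1) had 18 counts in T9, against 386 in T25, 23.2-fold (14.5 to 39.5) lower, and hexamerin-like (c78787_g1_i1) had 24 counts in T9, against 200 in T25, 9.01-fold (5.88 to 14.4) lower. Antenna and eye markers were lower in 48 of 50 cases, with 3526 counts in T9, against 24649 in T25. Muscle markers went both ways, 3 higher and 3 lower, with 48566 counts in T9, against 94659 in T25. The part of these tissues in the lipase ratios was not tested.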

How the data were processed

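Whole-body RNA of 1 library per temperature was sequenced. The methods and the submitters' processing notes state that the authors trimmed reads with Trimmomatic 0.38, checked them with FastQC 0.11.7, assembled the pooled reads with Trinity, kept the longest contig per gene, clustered contigs with CD-HIT, aligned each library with Bowtie 1.1.2 and obtained estimated counts per contig with RSEM. The deposited counts are whole numbers without normalization. The FPKM were computed by the authors per contig length and depth. The deposited log2 values are log2(CPM + 1), and the library sizes they carry were recovered from them. The authors' fold changes and p-values (4 columns) and 2 columns of means, equal to the log2 columns, were not used.

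Ratios are T9 over T25 of counts scaled by those library sizes, with exact Clopper-Pearson 95% intervals, and FPKM carry exact Poisson intervals. They cover counting error only, and reads are not independent molecules. A pseudocount of 1 on scaled counts was used for log2 ratios. Python 3.11.15, numpy 2.4.6, pandas 2.3.3, scipy 1.17.1 and matplotlib 3.10.9 were used, and the calculation was tested on simulated data. Alternatives covered the scaling, the pseudocount, a minimum total of 100 counts, the description used and the unit counted. Named contigs are all 17 members and, of each neighbouring list, the 3 with the largest total, with others chosen after their values were seen. The members and lists were chosen with earlier results of these data known. Names are matches in other species, and no genome positions or sequences were used here.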

Additional observations from a re-analysis of the deposited data

Results flagged for a closer look

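A few contigs are phospholipases by a name or domain that the word lipase in the NR or NT description did not find. Each had more counts than the 3 that a count of 0 allows. Contig c87346_g2_i1, uncharacterized in *S. invicta*, carries a phospholipase A2 domain and had 123 counts in T9, against 16 in T25, 7.11-fold (4.21 to 12.8) higher in T9. Contig c2185_g1_i1, matched only in KEGG, to an 85/88 kDa calcium-independent phospholipase A2, had 12 counts in T9, against 40 in T25, 3.60-fold (1.85 to 7.54) lower. Contig c90015_g2_i1 is described as a phosphatidylinositol bisphosphate phosphodiesterase, which is a phospholipase C of receptor signalling, and had 1415 counts in T9, against 3801 in T25, 2.90-fold (2.73 to 3.09) lower. No group has enough samples to look for a sample far from the others.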

How the results depend on the processing

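With 1 library per temperature the ratios have no replicate error, and no paired analysis was possible because each temperature has a single library. No alternative turned the direction of a class or of the contigs c78680_g1_i1, c83670_g1_i1, c89947_g1_i2, c76554_g1_i2 and c79106_g1_i2. For these 5 contigs a turn was out of reach. Each contig of the table differed at least 2.35-fold, and the scaling and pseudocount settings shift large log2 ratios only slightly. Their unchanged direction therefore says nothing about how firm it is. The log2 ratio of the summed triacylglycerol lipases was 1.75, and 1.88 with the clean read totals, 1.58 with FPKM, 2.54 without the contig with the most counts and 2.59 with the NR description alone, the last added after the data were seen. That of the phospholipases was -2.27, and -2.14 with the clean read totals, -1.94 with FPKM and -0.98 without the contig with the most counts. The clean read totals shift every log2 ratio by 0.13, which brings an eighth triacylglycerol lipase, c83994_g1_i1, over 4-fold (8 contigs in place of 7, also with FPKM). The phospholipases higher in T9 fell to 1 of 4 with a total of at least 100 counts and to 1 of 3 with the NR description alone, against 2 of 5, because fewer contigs were counted, and were 3 of 7 with UniProt and KEGG names as well, added likewise. For the 5 contigs, 18 of 20 alternative values stayed within the counting interval, and both others were scalings of c76554_g1_i2. Members with 3 or fewer counts in a library, 3 of 17, limit what their ratios can show.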
